A study of Mus musculus with 2 samples.

Results

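The cells described here were 164 ependymal cells of the injured mouse spinal cord that carried high levels of Crym. They held no more than stray transcripts of 5 dividing-cell genes and few transcripts of the motile cilium. They were chosen by measured values from the 1004 injured cells that the authors assigned to EpA, a class of ependymal cell, and from the 1559 EpA cells of both conditions. A cell was taken when it had at least 2000 unique molecular identifiers (UMIs), fewer than 5 UMIs in all of Mki67, Top2a, Cdk1, Birc5 and Prc1, and less than 2500 counts per 1000000 UMIs (CPM) in the sum of Ccdc153, Tmem212, Rsph1 and Dynlrb2. It also had to have 500 CPM or more of Crym. These Crym-high cells made up 16.3% of injured EpA cells (95% exact binomial interval 14.1 to 18.8).

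Ependymal cells line the central canal and carry beating cilia that move cerebrospinal fluid. After a lesion of the cord some of them divide, lose features of the multiciliated state and take on features of reactive glia. Crym encodes mu-crystallin, a cytosolic protein that binds thyroid hormone in the presence of NADPH. Lgr5 is a receptor for R-spondins, which raise Wnt signalling. Spry1 belongs to the Sprouty inhibitors of receptor tyrosine kinase signalling, and Etv5 is an ETS transcription factor often induced by the same signalling. Nkx6-2 is a homeobox factor of neural patterning, Sox11 a SoxC factor of neural progenitors and young neurons, and Cnn1 encodes calponin, an actin-binding protein of smooth muscle.

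Both groups of animals were adult C57BL/6J mice of at least 12 weeks that carried 1 Troy-CreERT2 allele and a Rosa26-tdTomato reporter. Troy is another name of Tnfrsf19, and the reporter marks cells in which the tamoxifen-dependent recombinase was active. The injured group was taken 3 days after the dorsal funiculus had been incised, and the uninjured group had an intact cord. Sorted tdTomato-positive cells gave 1 library of 3′ single-cell RNA sequencing per condition, and the labels do not say how many animals entered each. No difference below has a replicate check, cells of 1 library are not replicates, and no test was made. Ranges in brackets after a summed level, ratio or share are 95% intervals for counting error only. Ranges over single cells run from the lowest to the highest cell. The words "higher" or "lower" without a fold mean a ratio of at least 2 at 50 CPM or more in either set.

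The Crym-high cells were set against the other 828 injured EpA cells with enough UMIs, which fell into 3 sets by the same gates. Crym-low cells (236) passed every gate but had less than 500 CPM of Crym, cilium-keeping cells (412) exceeded the cilium limit, and dividing cells (180) had 5 or more UMIs of the dividing genes. The uninjured library had 547 EpA cells with enough UMIs, and there library and condition cannot be told apart. Total UMIs were 4828040 in Crym-high, 4923115 in Crym-low, 5957513 in cilium-keeping, 9575102 in dividing and 7680584 in uninjured cells. Crym-high cells were deep, with a median of 27344 UMIs (lowest to highest cell 8223 to 81636) against 17919 in Crym-low, 11465 in cilium-keeping, 49427 in dividing and 11415 in uninjured cells. The median share of mitochondrially encoded transcripts was 5.13% of UMIs in Crym-high, 6.52% in Crym-low, 8.76% in cilium-keeping, 3.71% in dividing and 11.3% in uninjured cells. Ribosomal protein transcripts made up 20.5%, 16.5%, 8.97%, 19.5% and 8.15% in the same order. Of the 38 named genes past 2-fold over Crym-low cells, 38 remained so by ratio alone with both kinds of gene left out of the totals. In cells with at least 1000 genes and under 10% mitochondrially encoded UMIs, 37 did. Depth is matched below.

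**Figure D1:**
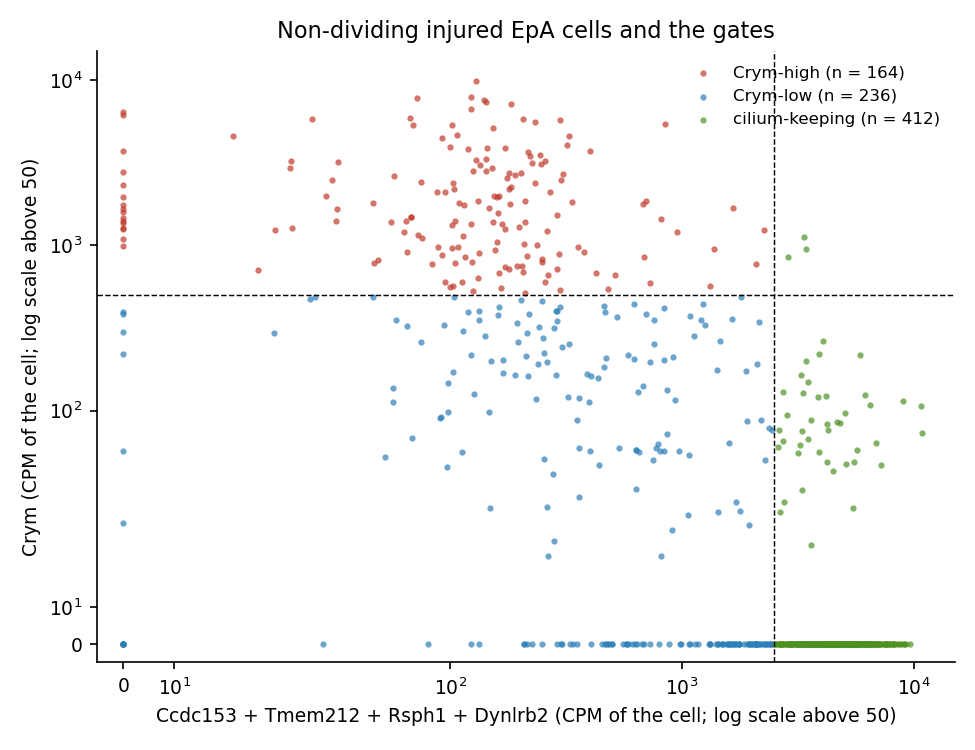
Each point is 1 non-dividing injured EpA cell, with the summed CPM of the 4 cilium genes of the rule on the x axis and Crym CPM on the y axis, both on a log scale above 50. Dashed lines mark 2500 CPM and 500 CPM. Crym-high cells fill the upper left, and 3 of 412 cilium-keeping cells lie at or above 500 CPM of Crym.

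Crym itself chose the cells, so its values are a description. Within the Crym-high set a cell's Crym level ran from 512 to 9893 CPM, with a median of 1623 CPM and 42 UMIs. The cells just inside the limit stood at 512, 530 and 533 CPM and those just outside at 490, 486 and 486 CPM, and 26 of the 400 cells on either side lay within 20% of it. There was no gap at 500 CPM, so the set is described as a range of Crym, and whether it is a separate state was not tested. Summed over cells, Crym was at 2322 CPM in Crym-high, 152 CPM in Crym-low, 24.8 CPM in cilium-keeping and 1681 CPM in dividing cells. Uninjured cells held 1 Crym UMI in 547 cells, or 0.13 CPM. High Crym was shared with dividing cells, of which 145 of 180 (80.6%) reached 500 CPM. The Crym-high cells held 11212 of the 28207 Crym UMIs of injured EpA cells (39.7%).

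Free RNA was gauged on 30 microglia-like cells of the injured library, a type that should lack these genes. Their Crym sum was 82.6 CPM, with 61 UMIs in 8 cells and 29 of them in 1 cell, at a median depth of 21187 UMIs. After thinning to 10000 UMIs a cell, Crym was seen in 100% of Crym-high cells (97.8 to 100), 50.5% of Crym-low, 9.74% of cilium-keeping, 94.4% of dividing and 25% of microglia-like cells (8.66 to 49.1). The cilium-keeping share lay below the microglia-like share, so most of it is not read as expression, but 3 of 412 cilium-keeping cells reached 500 CPM.

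The cells carried ependymal markers, though several stood below the uninjured level. The 12 ependymal markers summed to 27098 CPM in Crym-high, 29888 CPM in Crym-low and 25611 CPM in uninjured cells. No cell of the Crym-high set was at 0, and the lowest stood at 10831 CPM. The largest part was Vim, encoding the intermediate filament vimentin, at 19190 CPM in Crym-high, 16257 CPM in Crym-low and 2207 CPM in uninjured cells. Of the 10 markers measured at 50 CPM or more, 3 were 2-fold lower and none higher than in Crym-low cells (median log2 ratio −0.55). Against uninjured cells 6 were lower and 1 was higher (median −1.14), so the level sum rests on Vim. The tdTomato reporter was at 2006 CPM in Crym-high, 2218 CPM in Crym-low and 645 CPM in uninjured cells, while the driver gene Tnfrsf19 was sparse at 4.76, 12.6 and 16.7 CPM in the same order. Of 18 barcode sequences found in both libraries, none belonged to a Crym-high cell.

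Markers of microglia, endothelium, pericytes and fibroblasts were low, but several lists stood above the uninjured level. Summed microglial markers stood at 7.46 CPM in Crym-high and 19.7 CPM in Crym-low cells, endothelial markers at 17.4 and 11.4 CPM, pericyte and smooth muscle markers at 20.9 and 21.9 CPM, and fibroblast markers at 36.7 and 46.1 CPM. The oligodendrocyte markers summed to 141 and 133 CPM, and those of its precursor to 66.3 and 49.97 CPM. Per cell, the microglial sum ran from 0 to 82.1 CPM in Crym-high cells and from 0 to 1702 CPM in Crym-low cells, with a median of 0 in each. The highest Crym-high cell reached 1044 CPM of precursor, 3957 CPM of neuron and 7141 CPM of astrocyte markers. In uninjured cells the sums were 0.65 CPM for pericyte, 6.51 CPM for precursor, 506 CPM for astrocyte and 157 CPM for neuron markers. They were 5.86 CPM for microglial, 18.1 CPM for endothelial, 31.2 CPM for fibroblast and 160 CPM for oligodendrocyte markers. The astrocyte list summed to 1333 CPM in Crym-high and 2243 CPM in Crym-low cells, most of it Gfap and Aldoc. The neuron list summed to 814 and 429 CPM, of which Stmn2 alone gave 790 and 422 CPM. In Crym-high cells 1 of the 8 listed neuron markers, 1 of the astrocyte and 2 of the microglial markers were at 0.

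The other 5 marker genes were unevenly tied to Crym. Lgr5 was at 104 CPM (95.3 to 114) in Crym-high, 49.6 CPM in Crym-low, 2.18 CPM in cilium-keeping, 33.2 CPM in dividing and 3.52 CPM in uninjured cells. It was the only marker more than 2-fold above dividing cells, with a ratio of 3.14 (2.72 to 3.62), and its ratio over Crym-low cells was 2.10 (1.80 to 2.46). A Crym-high cell ran from 0 to 589 CPM of Lgr5 with a median of 71.7 CPM, against a median of 0 and a highest cell of 782 CPM in Crym-low cells, so the sets overlapped widely. At 10000 UMIs a cell, Lgr5 was seen in 51.5% of Crym-high (43.6 to 59.4), 28.6% of Crym-low (22.6 to 35.3), 2.25% of cilium-keeping, 25% of dividing and 0 of 20 microglia-like cells, which allows a share of up to 16.8%. Before thinning the shares were 73.8%, 37.7%, 2.67%, 56.1% and 6.67% in the same order.

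Spry1 was at 101 CPM (92.7 to 111) in Crym-high, 30.9 CPM in Crym-low, 0.84 CPM in cilium-keeping, 72.8 CPM in dividing and 0.26 CPM in uninjured cells. Its ratio over Crym-low cells was 3.29 (2.73 to 3.97) and over dividing cells 1.39 (1.24 to 1.57). At 10000 UMIs a cell it was seen in 48.5% of Crym-high (40.6 to 56.4), 14.6% of Crym-low (10.0 to 20.1) and 38.3% of dividing cells, and in 10% of microglia-like cells (1.23 to 31.7). Unthinned, the shares were 68.3%, 22.9%, 73.9% and 16.7%. Against uninjured cells the ratio was 390 but rested on 2 uninjured UMIs (107 to 3227).

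Sox11 and Nkx6-2 stood level with dividing cells. Sox11 was at 73.7 CPM in Crym-high, 22.7 CPM in Crym-low, 7.05 CPM in cilium-keeping, 77.4 CPM in dividing and 6.12 CPM in uninjured cells, a ratio of 3.24 (2.61 to 4.04) over Crym-low and 0.95 (0.84 to 1.08) over dividing cells. Nkx6-2 was at 90.9 CPM in Crym-high, 40.02 CPM in Crym-low, 1.01 CPM in cilium-keeping and 96.9 CPM in dividing cells, a ratio of 2.27 (1.92 to 2.70) over Crym-low and 0.94 (0.84 to 1.05) over dividing cells. It had no UMI in uninjured cells. The uninjured library's table lists only genes seen in at least 3 of its 876 barcodes and does not list Nkx6-2, so UMIs in fewer cells would not show. At 10000 UMIs a cell Sox11 was seen in 28.8% of Crym-high (22.0 to 36.4) and 17.96% of Crym-low cells (13.0 to 23.9), intervals that overlap. Nkx6-2 was seen in 36.8% (29.4 to 44.7) and 14.6% (10.0 to 20.1). Of the microglia-like cells, 5% held a Sox11 UMI and none of 20 an Nkx6-2 UMI. Before thinning the shares of Sox11 were 52.4% and 22.0%, and those of Nkx6-2 51.8% and 18.2%.

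Cnn1 did not mark the Crym-high cells. It was at 41.2 CPM (35.7 to 47.4) in Crym-high, 38.2 CPM in Crym-low, 5.04 CPM in cilium-keeping, 56.4 CPM in dividing and 2.21 CPM in uninjured cells. The ratio over Crym-low cells was 1.08 (0.88 to 1.32). It was carried by few cells, 36 of 164 Crym-high and 34 of 236 Crym-low cells, and 1 Crym-high cell supplied 19.1% of its UMIs. Over the 19 other settings tried, its log2 ratio ran from −1.25 to 1.40.

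**Figure D2:**
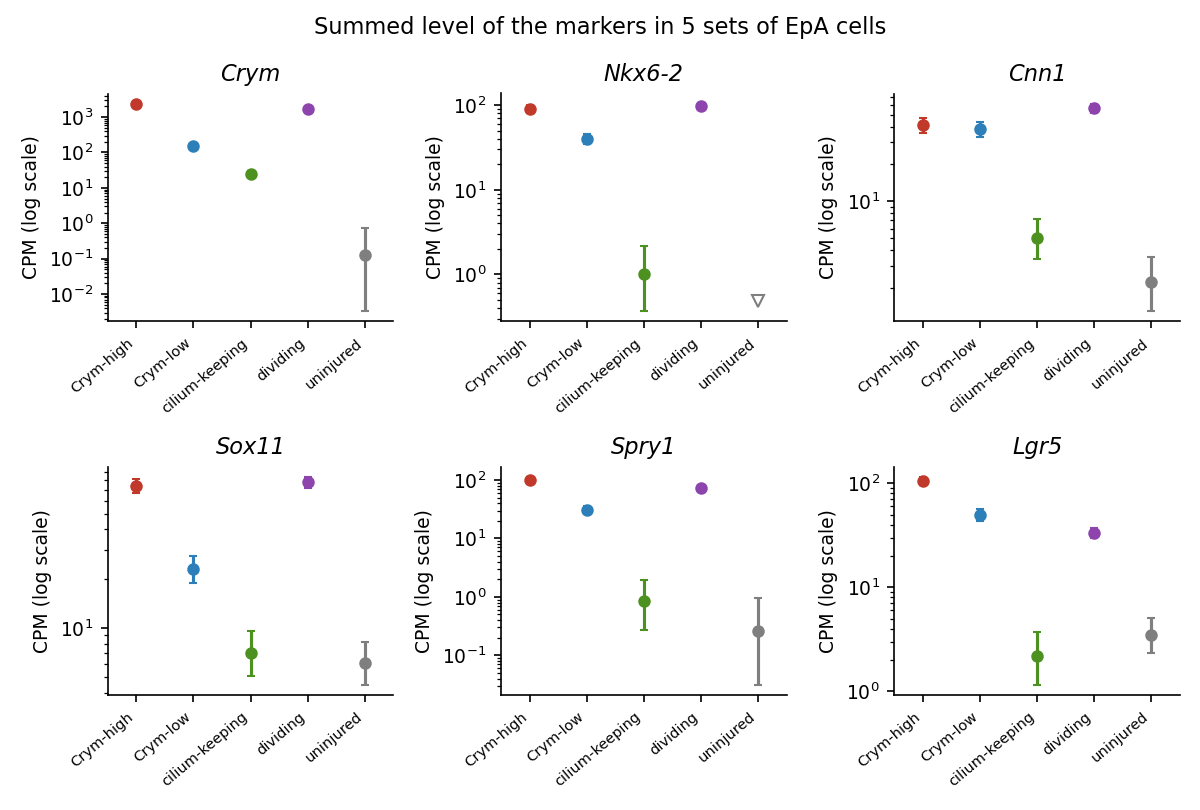
Summed CPM on a log scale (y axis) of Crym and the 5 other markers in Crym-high, Crym-low, cilium-keeping, dividing and uninjured EpA cells, with 95% Poisson bars for counting error. Dividing cells stand near Crym-high cells for Crym, Nkx6-2, Sox11, Spry1 and Cnn1, and below them for Lgr5 (33.2 against 104 CPM). The open triangle is the counting limit of a listed 0 for Nkx6-2.

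Nkx6-2, Sox11 and Spry1 were higher together in cells with more Crym, and their proximal promoters are printed to show the sequence at each start. They are the 250 bases before the RefSeq transcription start on GRCm38.p6, read along the strand of the gene. For Spry1 the stretch is chr3:37639697-37639946 on the plus strand, for Nkx6-2 chr7:139582798-139583047 on the minus strand and for Sox11 chr12:27342719-27342968 on the minus strand. Capitals mark matches on either strand to the GC box GGGCGG or the CCAAT box.
Spry1: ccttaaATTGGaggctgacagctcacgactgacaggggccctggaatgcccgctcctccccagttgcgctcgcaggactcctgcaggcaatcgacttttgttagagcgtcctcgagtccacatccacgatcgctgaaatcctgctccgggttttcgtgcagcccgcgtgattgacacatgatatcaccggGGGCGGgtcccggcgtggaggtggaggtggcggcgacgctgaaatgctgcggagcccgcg
Nkx6-2: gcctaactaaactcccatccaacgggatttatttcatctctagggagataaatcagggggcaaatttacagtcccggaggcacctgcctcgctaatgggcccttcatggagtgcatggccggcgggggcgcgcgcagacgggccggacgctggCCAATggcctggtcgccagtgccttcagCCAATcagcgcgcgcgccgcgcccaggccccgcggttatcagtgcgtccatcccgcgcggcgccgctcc
Sox11: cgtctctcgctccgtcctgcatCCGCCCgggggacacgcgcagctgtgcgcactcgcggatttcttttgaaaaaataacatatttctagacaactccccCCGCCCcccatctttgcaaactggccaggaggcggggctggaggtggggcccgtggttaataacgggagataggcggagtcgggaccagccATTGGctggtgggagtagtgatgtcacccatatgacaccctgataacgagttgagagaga
The Spry1 stretch held 1 GC box and 1 CCAAT box, the Nkx6-2 stretch 2 CCAAT boxes, and the Sox11 stretch 2 GC boxes and 1 CCAAT box. Over 32851 RefSeq mouse promoters of the same length, 32.7% held a GC box and 33.8% a CCAAT box. None of the 3 held the ETS core CCGGAA (12.0% of all), the AP-1 motif TGANTCA (6.75%), the E-box CACGTG (6.02%) or the TATA box TATAAA (12.4%). A match is a description of these letters only, and no data here bear on binding.

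The levels were graded across the 400 non-dividing cells with few cilium transcripts. They were divided by their own Crym into 0 CPM (100 cells), above 0 to 250 (86), 250 to 500 (50), 500 to 1000 (47), 1000 to 2000 (54), 2000 to 4000 (40) and 4000 CPM or more (23). From the lowest to the highest range, Lgr5 was at 37.1, 42.5, 72.9, 69.4, 96.0, 119 and 162 CPM. Spry1 was at 6.56, 27.2, 60.7, 54.5, 88.4, 140 and 154 CPM, and Sox11 at 12.4, 27.2, 26.0, 41.8, 61.7, 92.4 and 129 CPM. Nkx6-2 was at 16.0, 36.9, 68.6, 61.2, 88.4, 101 and 136 CPM. Each of these 4 was highest in the top range, and Lgr5, Spry1 and Nkx6-2 were no higher just above the limit of 500 CPM than just below it.

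Cnn1 and Gfap followed other courses. Cnn1 was at 1.46, 53.6, 50.5, 94.0, 30.5, 18.3 and 4.20 CPM, so it was low at both ends. Gfap, the intermediate filament of astrocytes, was at 1034, 1481, 1236, 935, 781, 600 and 823 CPM. Nnat, an imprinted gene strong in resting ependymal cells, was at 3674, 1768, 947, 393, 434, 523 and 486 CPM, and above the limit it no longer differed with Crym in 1 direction. Median depth was 13222, 21642, 26390, 27194, 25576, 27085 and 28607 UMIs over the same ranges, and the median of the 4 gate cilium genes was 1364, 401, 245, 173, 114, 144 and 123 CPM. Depth was lowest in the 2 lowest ranges, and the cilium median was higher in every range below 500 CPM than in any above it.

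**Figure D3:**
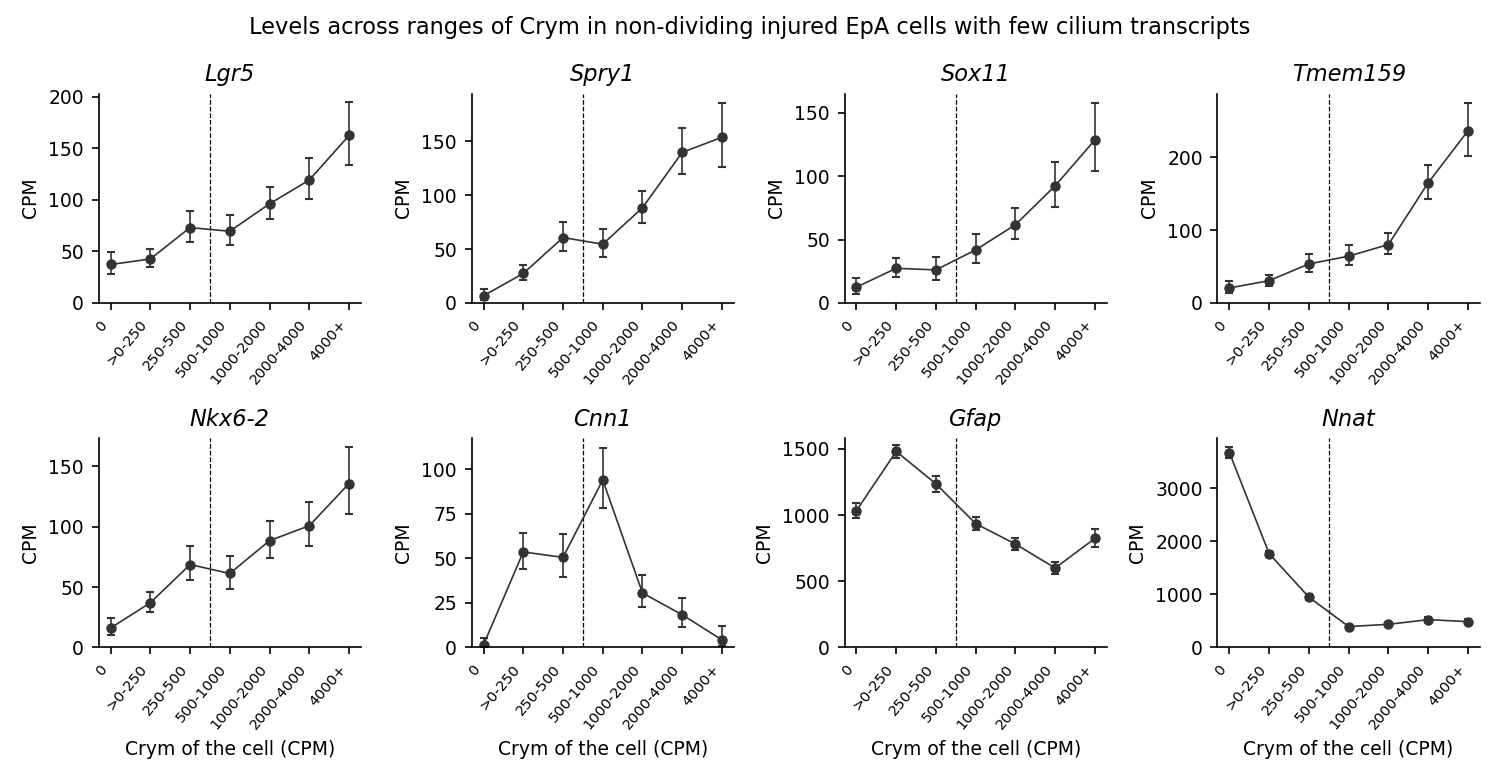
Summed CPM (y axis, with 95% Poisson bars) of 8 genes in 7 ranges of a cell's own Crym level (x axis), in 400 non-dividing injured EpA cells with few cilium transcripts. The dashed line marks the limit of 500 CPM, and Lgr5, Spry1, Sox11, Tmem159 and Nkx6-2 reach their highest level in the top range, while Cnn1 is at 94.0 CPM just above the limit and 4.20 CPM in the top range.

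Against Crym-low cells, 35 of 3263 genes were higher (1.07%) and 156 were lower (4.78%), and the median log2 ratio over all of them was 0.04. The higher genes held Crym by the rule. Of the other 34, 27 were within 2-fold of dividing cells, 4 were 2-fold above them and 3 were 2-fold below. Over all genes, 3.62% were higher and 6.70% lower than in dividing cells, so most genes lay within 2-fold. Of the 34, 31 were 2-fold above uninjured cells, beside 14.1% of all genes. Against cilium-keeping cells 32 were 2-fold above, but no share over all genes was taken there, so that count is not read further. The lower bound of the ratio over Crym-low cells passed 2 for 22 of the 35, Crym among them.

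Wnt7b had the highest ratio after Crym. It was at 60.3 CPM in Crym-high, 10.97 CPM in Crym-low, 55.1 CPM in dividing and 0.52 CPM in uninjured cells, a ratio of 5.50 (4.10 to 7.49) over Crym-low cells. It was seen in 33.1% of Crym-high and 6.31% of Crym-low cells at 10000 UMIs, in 5% of microglia-like cells, and in 53.0% and 10.2% of Crym-high and Crym-low cells before thinning. Gadd45a, a stress-induced gene that slows the cell cycle and takes part in repair, was at 214 CPM in Crym-high, 65.8 CPM in Crym-low, 93.9 CPM in dividing and 18.5 CPM in uninjured cells. Etv5 was at 56.8 CPM in Crym-high, 19.1 CPM in Crym-low, 59.3 CPM in dividing and 0.26 CPM in uninjured cells. Lrrc8c, a subunit of volume-regulated anion channels, was at 63.2 CPM in Crym-high and 19.3 CPM in Crym-low cells. Each of these 4 was higher in Crym-high than in Crym-low cells, and only Gadd45a was also 2-fold above dividing cells.

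Stmn1, a tubulin-binding protein of dividing and growing cells, was at 518 CPM in Crym-high, 173 CPM in Crym-low and 1486 CPM in dividing cells. Lgals1, encoding galectin-1, was at 1643 CPM in Crym-high, 567 CPM in Crym-low, 3887 CPM in dividing and 13.5 CPM in uninjured cells. Ccnd1, the G1 cyclin D1, was at 196 CPM in Crym-high, 61.1 CPM in Crym-low, 594 CPM in dividing and 7.55 CPM in uninjured cells. These 3 genes lay between Crym-low and dividing cells, 2-fold from each. Sgk1, a serum-induced kinase, was at 52.0 CPM in Crym-high, 17.9 CPM in Crym-low and 81.3 CPM in dividing cells.

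Reg1, encoding a secreted lectin of the Reg family, was at 99.0 CPM in Crym-high and 24.2 CPM in Crym-low cells, but 1 cell supplied 52.5% of its Crym-high UMIs. Without the highest cell of each set its log2 ratio was 1.18 in place of 2.03, and among cells with 2000 to 20000 UMIs it was −0.65.

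Tmem159, which encodes a lipid droplet assembly factor, is a neighbour of Crym. In RefSeq on GRCm38.p6 Tmem159 spans 120102342 to 120120987 of chromosome 7 and Crym 120186380 to 120201989, with 65392 bases between them. Of the 2 genes in that interval, Zp2 did not reach 10 CPM in any set and Anks4b stayed at or below 1.27 CPM in every Crym range. Tmem159 was at 120 CPM in Crym-high, 34.1 CPM in Crym-low, 81.4 CPM in dividing and 21.1 CPM in uninjured cells. Over the Crym ranges from low to high it was at 20.4, 30.5, 53.4, 64.2, 80.1, 165 and 236 CPM. Whether reads of the pair could be confused was not tested, but the genes do not overlap in RefSeq.

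Most of the lower genes were also 2-fold below uninjured cells. Leaving out the 4 cilium genes of the rule, 152 genes were lower than in Crym-low cells. Of these, 138 were also 2-fold below uninjured cells, beside 20.1% of all genes. Another comparison, with cilium-keeping cells, had 140 of them 2-fold below, but no share over all genes was taken there, so that count is not read further. The Crym-high sum enters each of these ratios, so the overlap is partly built in. Of the 152, 61 were 2-fold above dividing cells, where 3.62% of genes at 50 CPM or more were higher. That floor was not applied to the 61. Crym-low cells also kept more gate cilium transcripts, with a median of 583 CPM against 141 CPM in Crym-high cells. Stoml3, a stomatin-like membrane protein, was at 5.80 CPM in Crym-high, 63.4 CPM in Crym-low, 441 CPM in cilium-keeping and 431 CPM in uninjured cells. Pcp4, a regulator of calmodulin, was at 8.49, 80.8, 505 and 668 CPM in the same order. Nnat was at 452, 2069, 5870 and 5595 CPM, and Mt3, the brain metallothionein, at 1906, 5603, 11463 and 10528 CPM. In each of these 4 the Crym-low cells stood between the Crym-high and the cilium-keeping cells. In cells limited by depth and cilium transcripts as described below, Nnat and Mt3 were no longer 2-fold lower. Their log2 ratios were −0.72 and −0.82 in place of −2.19 and −1.56. Stoml3 had a log2 ratio of −0.91 there in place of −3.43, but from only 10 and 9 UMIs. Its ratio of Crym-low over Crym-high cells was 1.87 (0.67 to 5.11), so these cells do not settle whether it was still 2-fold lower.

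The remaining lowest ratios were those of Hspa1b, Acot5, Akap14, Fam216b, Hspa1a, Dnah6, C3, Mfsd7b, Dmkn and Iqca, with log2 ratios of −3.49 to −2.40. The heat shock genes Hspa1b and Hspa1a were at 5.80 and 16.6 CPM in Crym-high cells, against 66.4 and 99.3 CPM in Crym-low cells. C3, the central complement component, did not follow the pattern of most lower genes. It was at 11.2 CPM in Crym-high, 63.2 CPM in Crym-low, 33.9 CPM in cilium-keeping, 1.25 CPM in dividing and 1.04 CPM in uninjured cells, and 1 cell supplied 40.7% of its Crym-high UMIs. In all, 5 of the 152 genes were 2-fold above uninjured cells and yet below Crym-low cells. They were C3, Vcan, Scpep1, Serping1 and Itgb4, named after their values were seen. Vcan, encoding the proteoglycan versican, was at 79.5 CPM in Crym-high, 203 CPM in Crym-low, 51.7 CPM in dividing and 7.03 CPM in uninjured cells.

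**Figure D4:**
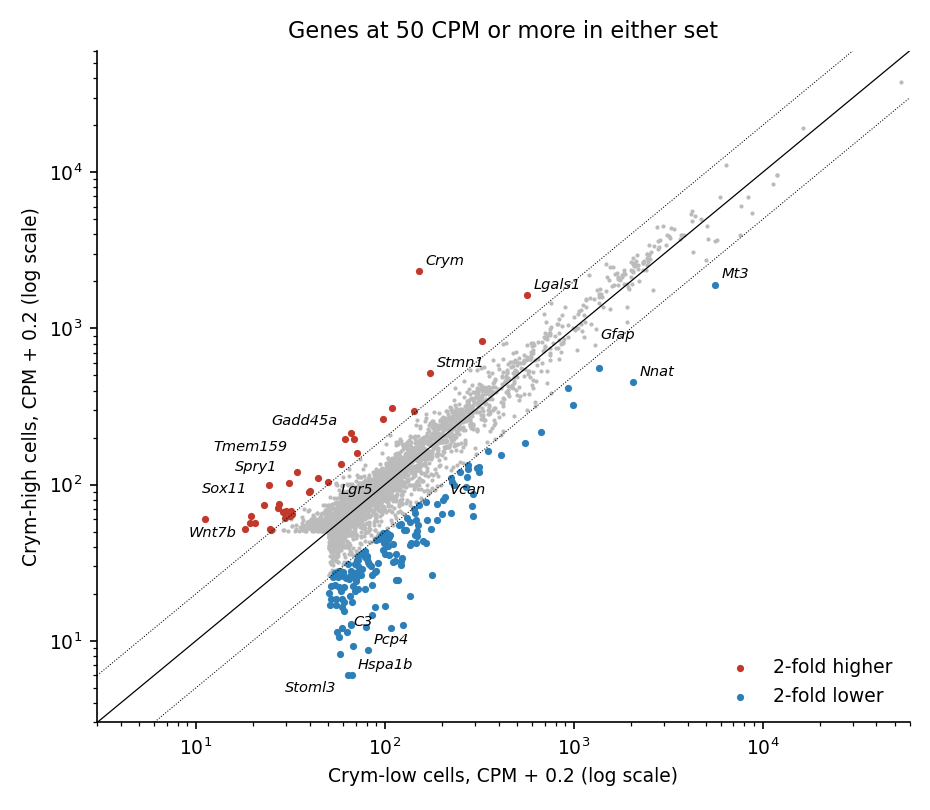
Each point is a gene, with its summed CPM in Crym-low cells on the x axis and in Crym-high cells on the y axis, both on a log scale with 0.2 added. Red points are 2-fold higher (35) and blue points 2-fold lower (156) in Crym-high cells, grey points lie between, and the dotted lines mark 2-fold.

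Depth and residual cilium transcripts differed between the sets, so both were limited in an alternative added after seeing the data. Cells with at least 20000 UMIs and less than 500 CPM of the gate cilium genes, here called matched, left 127 Crym-high and 65 Crym-low cells. They held 4047856 and 1951022 UMIs. The limits narrowed the differences and did not remove them. The median of the gate cilium genes was 125 CPM in these Crym-high and 194 CPM in these Crym-low cells, and median depth was 28653 and 26839 UMIs. There 14 of 3079 genes were higher (0.455%) and 24 lower (0.779%), against 35 and 156 over all cells. Of the 14, 13 were among the 35, and of the 24, 18 were among the 156. The higher genes were Crym, Reg1, Wnt7b, Tmem159, Lrrc8c, Gadd45a, Stmn1, Ociad2, Sox11, Etv5, Spry1, Id2, Dusp1 and 2700094K13Rik. In these cells Wnt7b was at 66.7 CPM in Crym-high and 19.99 CPM in Crym-low cells (ratio 3.34, 2.38 to 4.797), Tmem159 at 122 and 40.5 CPM (3.01, 2.37 to 3.86) and Gadd45a at 225 and 90.2 CPM (2.49, 2.12 to 2.95). Spry1 was at 103 and 49.2 CPM (2.09, 1.67 to 2.64) and Sox11 at 81.5 and 36.9 CPM (2.21, 1.71 to 2.89). Lgr5 and Nkx6-2 fell short of 2-fold, with log2 ratios of 0.74 and 0.59, as did Ccnd1 (0.93), Lgals1 (0.84) and Sgk1 (0.78).

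Among the 24 genes lower in the matched cells were Vcan, at 72.1 CPM in Crym-high and 196 CPM in Crym-low cells, and the acute-phase gene Lbp, at 56.3 and 147 CPM. The carboxypeptidase gene Scpep1 was at 81.0 and 333 CPM and Mia, a secreted protein of the ependymal list, at 188 and 432 CPM. These 4 were lower in Crym-high cells both over all cells and in the matched cells. Spp1, encoding osteopontin, Timp1, an inhibitor of metalloproteinases, and Fbln2, a fibulin, were lower mainly through 1 Crym-low cell. That cell held 84.0%, 63.9% and 44.5% of their Crym-low UMIs. Without it their log2 ratios were 1.02, 0.15 and −0.82, in place of −1.56, −1.26 and −1.60, and the counts were 15 higher and 23 lower.

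Gene lists are given by counts and medians over members measured at 50 CPM or more in either set, beside the median of 0.04 over all genes. They describe these cells, and no list was tested. Motile cilium genes outside the gate differed most, with 23 of 27 lower and none higher (median log2 ratio −1.47). Dnah6, a dynein heavy chain of the axoneme, was at 14.5 CPM in Crym-high, 85.5 CPM in Crym-low and 284 CPM in uninjured cells, and Odf3b at 12.6, 66.0 and 383 CPM. In the matched cells 3 of the 17 genes at 50 CPM or more there were lower (median −0.67), beside an all-gene median of 0.01. Over the same 27 genes, 6 were 2-fold lower in the matched cells, with a median of −0.69. Medians and counts given for matched cells use the genes measured there, which can differ from those over all cells. Of 15 other ependymal identity genes 6 were lower and none higher (median −0.69, and −0.36 in matched cells). Mia was at 217 CPM in Crym-high, 670 CPM in Crym-low, 1155 CPM in cilium-keeping and 1418 CPM in uninjured cells, and Rarres2, encoding chemerin, at 41.8, 145, 1345 and 1747 CPM. In the matched cells the log2 ratios of Odf3b and Rarres2 were −0.80 and −0.43, and both genes were under 50 CPM. Odf3b rested on 31 and 26 UMIs. Its ratio of Crym-low over Crym-high cells was 1.74 (0.99 to 3.03), so whether it was still 2-fold lower is not settled.

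Of 13 measured Sox and progenitor factors, 3 were higher and none lower (median 0.24, and 0.00 in matched cells). They were Sox11, Id2 and Fabp7, a fatty acid binding protein of radial glia, of which Fabp7 fell short in the matched cells (log2 ratio 0.76). Fabp7 was at 827 CPM in Crym-high, 326 CPM in Crym-low, 1275 CPM in dividing and 67.1 CPM in uninjured cells. Hes1, a Notch effector, was at 209 CPM in Crym-high and 107 CPM in Crym-low cells, just under 2-fold. Of 5 Sprouty and ERK feedback genes, Spry1 and Etv5 were higher and none was lower (median 0.36). Ier3 was at 152 CPM in Crym-high and 118 CPM in Crym-low cells, and Phlda1 at 132 and 104 CPM. The list as a whole was therefore carried by Spry1 and Etv5.

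Of 13 growth cone and neuropeptide genes, only Stmn1 passed 2-fold, though the median of 0.72 lay above that of all genes (0.25 in matched cells). Stmn2 was at 790 CPM in Crym-high, 422 CPM in Crym-low, 894 CPM in dividing and 152 CPM in uninjured cells. Gap43, a growth cone protein, was at 100 CPM in Crym-high, 55.0 CPM in Crym-low and 143 CPM in dividing cells, with 1 UMI in uninjured cells. Of 9 G1 cyclins and cell cycle inhibitors, Ccnd1 and the inhibitor Cdkn1a were higher and none was lower (median 0.51). Cdkn1a was at 56.3 CPM in Crym-high, 20.3 CPM in Crym-low, 38.5 CPM in dividing and 78.5 CPM in uninjured cells, so it was not above the uninjured level. Rb1, the retinoblastoma gene, was at 125 CPM in Crym-high and 224 CPM in Crym-low cells. No S phase gene reached 50 CPM in either set, and their sum was 248 CPM in Crym-high, 182 CPM in Crym-low and 1817 CPM in dividing cells. Per cell, the median was 207 CPM in Crym-high and 1161 CPM in dividing cells. The highest Crym-high cell stood at 2057 CPM, above that dividing median, and the highest Crym-low cell at 580 CPM. Whether any Crym-high cell was in S phase was not tested.

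Reactive glia genes had 1 of 19 members higher (Lgals1) and 1 lower (Vcan), with a median of 0.12. In the matched cells none was higher and 3 were lower (median −0.06). The sum of the list was 12071 CPM in Crym-high and 14256 CPM in Crym-low cells, against 12068 and 10562 CPM over all cells. Of the 3, Spp1 and Timp1 were lower mainly through the 1 Crym-low cell described above. Without it they were at 300 and 172 CPM in matched Crym-low cells, in place of 1789 and 455 CPM. The higher Crym-low sum thus rests in large part on that cell. Gfap was at 785 CPM in Crym-high, 1287 CPM in Crym-low, 247 CPM in cilium-keeping, 267 CPM in dividing and 8.59 CPM in uninjured cells, so Crym-low cells stood above Crym-high cells and both stood above the dividing cells. Cd44, the hyaluronan receptor, was at 62.1 CPM in Crym-high and 36.4 CPM in Crym-low cells. None of 10 smooth-muscle-type contractile genes passed 2-fold (median 0.25, and −0.14 in matched cells). None of 3 measured genes of thyroid hormone handling did (median −0.46). The thyroid hormone receptor gene Thra was at 119 CPM in Crym-high, 164 CPM in Crym-low, 60.8 CPM in dividing and 266 CPM in uninjured cells, and its target Klf9 at 56.5, 79.8, 48.8 and 128 CPM.

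Of 6 dorsoventral patterning factors only Nkx6-2 was higher and none was lower (median −0.05). Irx3 was at 53.2 CPM in Crym-high and 65.4 CPM in Crym-low cells, and Ptch1, the Hedgehog receptor, at 73.3 and 59.9 CPM. Of the Lgr5 and Wnt feedback list only Lgr5 and Lgr4 were measured, and Lgr4 was at 52.8 CPM in Crym-high and 68.5 CPM in Crym-low cells. None of 10 immediate early, 7 extracellular matrix, 7 interferon response, 10 ribosome biogenesis, 3 G2 and mitosis and 2 Atf4 amino acid stress genes passed 2-fold (medians 0.06, 0.23, 0.27, 0.45, −0.47 and 0.14). Fn1, fibronectin, was at 178 CPM in Crym-high and 114 CPM in Crym-low cells. Ifitm3, a membrane protein of the interferon response, was at 3665 and 5731 CPM, and B2m, the class I light chain, at 238 and 154 CPM. Of 12 glycolysis genes 1, the phosphofructokinase gene Pfkp, was higher at 62.8 and 31.3 CPM (median 0.32), though not in the matched cells (log2 ratio 0.55), while Aldoc was at 300 and 562 CPM. Of 9 metallothionein and antioxidant genes only Mt3 was lower and none was higher (median −0.09).

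**Figure D5:**
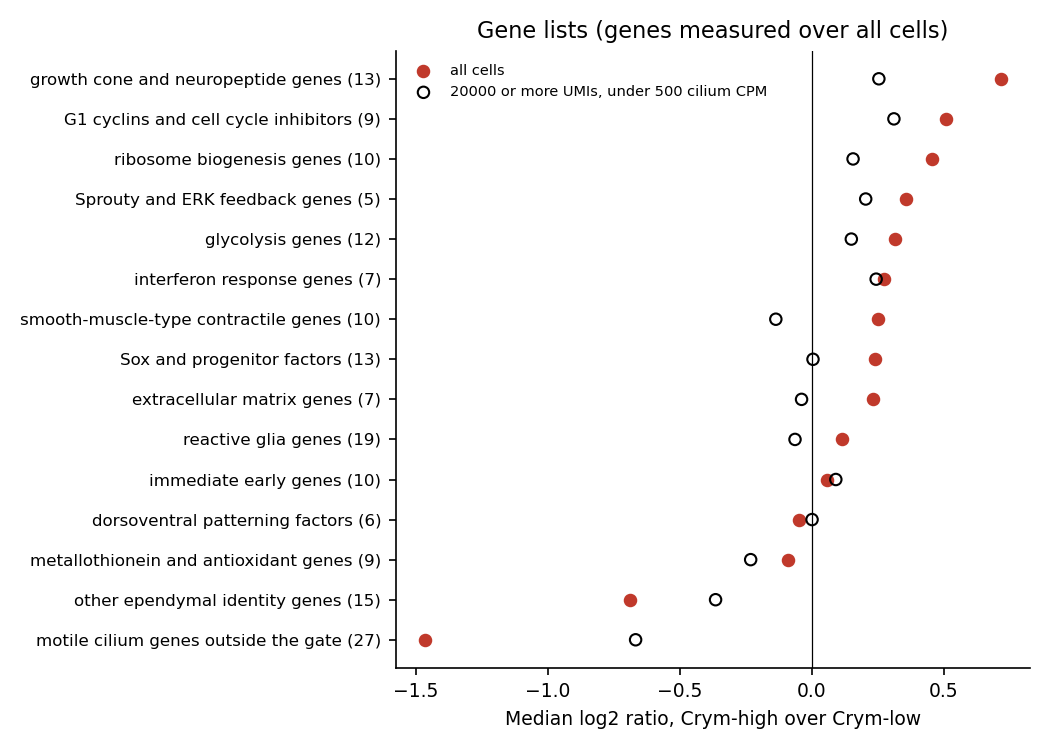
Median log2 ratio of Crym-high over Crym-low cells (x axis) for each gene list with at least 5 measured genes (y axis, number measured over all cells in brackets). Red points use all cells and open points the cells with at least 20000 UMIs and under 500 cilium CPM. Open points use the genes measured in those cells, and the motile cilium median there is −0.67 over 17 genes in place of −1.47.

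Against the dividing cells, with which they shared Crym, Crym-high cells had 120 of 3313 genes higher (3.62%) and 222 lower (6.70%). Genes of division are lower here by the rule. Of the 2888 genes at 50 CPM or more in Crym-high cells, 4 were 2-fold above each of the Crym-low, cilium-keeping and dividing sets, namely Lgr5, Gadd45a, Gmpr and Reg1. In the matched cells Lgr5 and Gmpr were not 2-fold above Crym-low cells, and Reg1 rested largely on 1 cell. Gmpr, a GMP reductase named after its values were seen, was at 296 CPM in Crym-high, 142 CPM in Crym-low, 16.8 CPM in cilium-keeping, 84.3 CPM in dividing and 11.5 CPM in uninjured cells. No gene at 50 CPM or more in those 3 sets was 2-fold lower in Crym-high cells than in each of them. The 25 reactive glia genes together were at 12068 CPM in Crym-high and 16117 CPM in dividing cells. Among them Gfap had a ratio of 2.94 (2.80 to 3.10) over dividing cells, while Lgals1 was lower. Apoe, the main lipid carrier of glia, named after its values were seen, was at 557 CPM in Crym-high and 116 CPM in dividing cells. Apoe was nevertheless at 1355 CPM in Crym-low and 1044 CPM in uninjured cells.

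Against all 828 other injured EpA cells, 36 of 3350 genes were higher (1.07%) and 259 were lower (7.73%). Lgr5 had a ratio of 3.71 (3.28 to 4.18), Crym 2.80 (2.73 to 2.86), Spry1 2.43 (2.17 to 2.72) and Wnt7b 2.10 (1.82 to 2.43). Nkx6-2 (1.64, 1.47 to 1.84), Sox11 (1.69, 1.49 to 1.91) and Cnn1 (1.11, 0.95 to 1.30) did not reach 2-fold. Dividing cells supplied 9575102 of the 20455730 UMIs of this comparison set.

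Against uninjured cells, 533 of 3774 genes were higher (14.1%) and 760 lower (20.1%), with a median log2 ratio of 0.00. Reactive glia genes had 17 of 19 members higher and none lower (median 3.49), and growth cone genes 10 of 14 higher and 1 lower (median 2.64). Motile cilium genes had 31 of 33 lower (median −2.92) and other ependymal genes 12 of 17 lower (median −1.81), with none higher in either. Interferon response genes had 5 of 7 higher (median 2.04) and ribosome biogenesis genes 7 of 10 higher (median 1.23). Gfap had a ratio of 91.3 (71.6 to 118), Lgals1 121 (100 to 149), Wnt7b 116 (44.7 to 428) and Lgr5 29.6 (20.1 to 45.4). Sox11 had a ratio of 12.0 (8.87 to 16.7). The Crym ratio rested on 1 uninjured UMI, and its interval ran from 3201 to 704561. Of the higher genes 68 encoded ribosomal proteins.

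Variation within the Crym-high set was described for genes seen often enough. Cells were thinned to 10000 UMIs (163 cells), and the ratio of variance to mean of UMIs per cell was taken over the 2888 genes at 50 CPM or more. Its median was 1.13, and it was 2 or more for 292 genes. For genes with few UMIs a cell this ratio lies near 1 unless the spread is large, so a value near 1 does not show that they were even. Malat1, a nuclear RNA, was highest at 78.3 and was seen in every cell, from 52 to 874 UMIs. Next, with genes of the kinds left out of naming passed over, were Spp1 (75.6), Tagln (71.3), Acta2 (41.2) and Reg1 (29.4). Spp1 was seen in 53 of 163 thinned cells, Tagln, encoding transgelin, in 67 and the smooth muscle actin gene Acta2 in 20.

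Single cells supplied a large part of these transcripts. Over all 164 cells, 1 cell supplied 35.5% of Spp1, 23.3% of Tagln and 43.5% of Acta2. Tagln ran from 0 to 15851 CPM in a cell with a median of 8.40 CPM, and its sum was 716 CPM in Crym-high, 684 CPM in Crym-low, 904 CPM in dividing and 13.8 CPM in uninjured cells. Like Cnn1, Acta2 was low at both ends of the Crym range, at 26.2, 172, 72.9, 207, 240, 41.6 and 9.79 CPM from low to high Crym. Among the ranges above the limit, only that at 240 CPM held enough Acta2 UMIs to contain the top Crym-high cell. That highest level therefore rests largely on 1 cell. Pericyte and smooth muscle markers, of which the contractile list holds Myh11 and Des, summed to 20.9 CPM in these cells and 0.65 CPM in uninjured cells.

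The genes whose level per cell was most like that of Crym were sought over 369 Crym-high and Crym-low cells thinned to 10000 UMIs, among 3258 genes. The 8 with the highest Spearman correlation were Tmsb10 (0.62), Lgals1 (0.62), Rpsa (0.61), Tmsb4x (0.61), Ftl1 (0.58), Rps2 (0.58), Ppp1r14b (0.57) and Uchl1 (0.55). Tmsb10 and Tmsb4x encode actin-binding thymosins, Rpsa and Rps2 ribosomal proteins and Ftl1 a ferritin chain. At the opposite end Mt3 stood at −0.66. The cells share 1 library, and the sparse markers are limited by counting, with Spry1 at 0.45. Within the 163 Crym-high cells alone the 8 values were 0.14 to 0.30, and Stmn1 stood at 0.40. The genes were picked over both sets and Crym spans less within 1 of them, so the lower values are a description only.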

How the data were processed

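The deposited values were raw UMI counts by gene and cell. The authors had not normalised them, since they were whole numbers whose totals differed between cells. The submitters' processing notes name Cell Ranger 3.0.1, Seurat and mm10. What each tool did, which Seurat version it was and which annotation served were not given in the sources used here. Groups came from the sample labels, and cells from the authors' table of EpA cells.

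Counts were summed over the cells of a set and scaled to CPM of the set's total. Log2 ratios had 0.5 counts added to each sum. Levels carry exact Poisson, ratios exact conditional binomial and shares exact Clopper-Pearson intervals at 95%, for counting error only, and say nothing of variation between animals. A gene was called by size alone, at 50 CPM in either sum and 2-fold. With 1 library per condition no test was possible. The members, the 20 gene lists, the 10 marker lists and the alternatives were chosen with earlier results of these data known. Named genes were the 12 highest and 12 lowest ratios over Crym-low cells, the markers, up to 4 members of each list with the largest ratios, Tnfrsf19 and tdTomato. Genes of the rule, mitochondrially encoded, ribosomal protein and predicted or clone-named genes were not named among the ratios but counted (0 of the 35 higher and 17 of the 156 lower genes were of the last 3 kinds). The 30 microglia-like cells lay outside the EpA set and had at least 5000 CPM of microglial markers. Scrublet called 4 of 876 uninjured and 4 of 1566 injured barcodes doublets, none of them Crym-high or Crym-low. The caller marked too few barcodes to show whether doublets remained, and its calls were used only in an alternative. Gene positions and promoters were matched by symbol to RefSeq on GRCm38.p6, where 15555 of 17189 genes had a match. Promoters of Spry1, Nkx6-2 and Sox11 were read there.

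The calculation was tested on simulated counts. Python 3.11.15, NumPy 2.4.6, pandas 2.3.3, SciPy 1.17.1, Scanpy 1.11.5 and matplotlib 3.10.9 were used, with edgeR 4.0.16 in R 4.3.3 for TMM factors only.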

Additional observations from a re-analysis of the deposited data

Results flagged for a closer look

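Crym transcripts were also found in data outside the EpA set. The 224 injured cells that the authors kept but did not assign to EpA stood at 75 CPM of Crym (68.7 to 81.8), with a UMI in 53 cells, and 4 of them met the rule for Crym-high cells. The 338 injured barcodes that the authors did not keep stood at 247 CPM (221 to 275), with a UMI in 42 and 178 of 335 Crym UMIs in 1 barcode. Of these barcodes 10 met the rule, and their median share of mitochondrially encoded UMIs was 0.0689%, at a median of 6160 UMIs. In the uninjured library the 156 kept cells outside EpA and the 165 barcodes not kept held no Crym UMI, which allows up to 2.34 and 5.07 CPM by a limit of 3 counts.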

How the results depend on the processing

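The 2-fold counts depended on the depth, the floor and the limits chosen. Genes higher over Crym-low cells, 35 as reported, numbered 54 with every cell weighted alike, 124 with cells thinned to 2000 UMIs, 116 in shallow cells (2000 to 20000 UMIs) and 23 in deep cells (20000 or more). They numbered 1311 with no CPM floor, 86 at 20 CPM, 125 at 1.5-fold, 9 at 3-fold, 22 with the ratio's nearer bound past 2-fold, 58 with a dividing-gene sum below 2 and 72 at a cilium limit of 4000 CPM. Under settings added after seeing the data they numbered 16 with both sets below 500 cilium CPM, 14 with at least 20000 UMIs as well and 71 with Crym at 1000 or more against below 250 CPM. Genes lower, 156 as reported, numbered 238 with cells weighted alike, 302 thinned to 2000 UMIs, 245 in shallow cells, 2099 with no floor, 325 at 20 CPM, 313 at 1.5-fold and 60 at 3-fold. They numbered 90 at a cilium limit of 1500 CPM, 313 at 4000 CPM, 30 below 500 CPM, 24 with at least 20000 UMIs as well and 251 with the gap in Crym.

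Genes higher over all other injured cells, 36 as reported, numbered 97 with cells weighted alike, 143 and 57 thinned to 2000 and 10000 UMIs, 279 and 20 in shallow and deep cells, 1106 with no floor, 71 at 20 CPM, 171 at 1.5-fold, 4 at 3-fold and 20 by the nearer bound. Genes lower, 259 as reported, numbered 409 with cells weighted alike, 450 thinned to 2000 UMIs, 526 and 159 in shallow and deep cells, 2283 with no floor, 534 at 20 CPM, 430 at 1.5-fold and 148 at 3-fold. Over uninjured cells, 533 higher genes became 3289 with no floor, 941 at 20 CPM, 932 at 1.5-fold and 249 at 3-fold, and 760 lower genes became 3620, 1310 and 492 with no floor, at 20 CPM and at 3-fold. The 164 cells became 214 at a Crym limit of 250 CPM, 117 at 1000 CPM and 121 with a dividing-gene sum below 2.

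Of 38 named genes past 2-fold over Crym-low cells, 25 to 38 stayed past it under the 19 settings, fewest with both depth and cilium transcripts limited. These counts rest on the ratio alone, and the floor of 50 CPM was not applied again. With both limited, Hspa1b was at 5.19 CPM in Crym-high and 15.9 CPM in Crym-low cells. Pcp4 was at 6.18 and 14.9 CPM, yet both genes count as kept. Nkx6-2 and Lgr5 fell short under 4 of the 19. Reg1 turned to −0.65 in shallow cells and to −0.29 at a Crym limit of 1000 CPM. The cause of each change was not tested, beyond fewer or more genes entering with the floor and the fold. No paired analysis was possible because there was 1 library per condition and the labels give no replicate numbers.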

Other observations

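Genes of the 3 kinds left out of the naming rule were few in the comparison with Crym-low cells, at 0 of 35 higher and 17 of 156 lower genes. Against uninjured cells they were 80 of 533 higher and 69 of 760 lower genes, and 9 of the lower were mitochondrially encoded. After thinning to 10000 UMIs a cell, the median number of genes seen was 3163 in Crym-high, 3229.5 in Crym-low, 3384 in cilium-keeping, 3215.5 in dividing and 3358 in uninjured cells. Of the 164 Crym-high cells, 76 held no UMI of the 5 dividing genes. Olfml3, encoding an olfactomedin-like secreted protein, and Thbs2, encoding thrombospondin 2, fell outside the naming rule and were chosen after their values were seen. Olfml3 was at 308 CPM in Crym-high, 109 CPM in Crym-low, 222 CPM in dividing and 2.21 CPM in uninjured cells, and Thbs2 at 197, 68.7, 131 and 0.91 CPM in the same order.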
